A study of Mus musculus with 8 samples.

Results

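The genes described here are 10 transcripts associated with microglia, the resident macrophages of the brain, and with their chemokine output: *Ccl3*, *Ccl4*, *C1qa*, *C1qb*, *C1qc*, *Csf1r*, *Cx3cr1*, *Aif1*, *Tyrobp* and *Fcer1g*. They were found by symbol in the array annotation and make up 10 of the 19938 genes that the arrays measured with a probe set of 1 gene symbol. All 10 were measured, each by 1 probe set, and no filter on low values was applied.

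The study profiled embryonic mouse ventral midbrain, where mesodiencephalic dopaminergic (mdDA) neurons arise, on Affymetrix Mouse Gene ST arrays, with 2 arrays in each of 4 groups. The sorted E14.5 and sorted E13.5 groups held GFP-expressing mdDA neurons, taken by fluorescence-activated cell sorting from heterozygous Pitx3GFP/+ embryos of a mixed C57BL/6 x 129/Ola strain. In this line GFP stands at the *Pitx3* locus, so the sort followed *Pitx3* activity, and 1 *Pitx3* allele carried the reporter in both groups. Both dissected groups, mdDA domain and lateral domain, were cut by laser from fixed, antibody-stained sections of E12.5 BAT-gal embryos of a mixed B6D2F1 strain, in which a WNT/b-catenin-responsive promoter drives b-galactosidase. The mdDA domain was positive for b-galactosidase and PITX3 and the lateral domain for neither. Each dissected group was a pool of 5 embryos. How many embryos entered a sort is not given in the sources used here. The study calls the 2 arrays of a group technical replicates, so every SD and p-value below measures the spread between arrays and not between embryos. Stage, strain, reporter line and isolation all changed together between sorted neurons and dissected domains, and their contributions cannot be told apart. In such bulk samples fewer cells of a type and less RNA per cell cannot be told apart either.

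Microglia derive from yolk sac macrophages that enter the neural tube early in development. They depend on the receptor encoded by *Csf1r* and signal through surface receptors coupled to the adaptor proteins TYROBP and FCER1G. They are the main source of C1q, the recognition molecule that starts the classical complement cascade. CCL3 and CCL4 are related, secreted CC chemokines that activated microglia and other myeloid cells produce and that draw leukocytes through receptors such as CCR1.

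The promoter of *Ccl3* is shown because this gene carried the largest change of the 10. RefSeq promoter windows (250 bases before to 50 bases after the annotated start, build GRCm38.p6) were at hand for 6 of the 10 genes, *Ccl3*, *C1qb*, *C1qc*, *Cx3cr1*, *Aif1* and *Fcer1g*. The *Ccl3* window lies at chr11:83649329-83649628 on the minus strand and is written 5′ to 3′, with capitals at the matches to the TATA box letters TATAAG on either strand.

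*Ccl3*: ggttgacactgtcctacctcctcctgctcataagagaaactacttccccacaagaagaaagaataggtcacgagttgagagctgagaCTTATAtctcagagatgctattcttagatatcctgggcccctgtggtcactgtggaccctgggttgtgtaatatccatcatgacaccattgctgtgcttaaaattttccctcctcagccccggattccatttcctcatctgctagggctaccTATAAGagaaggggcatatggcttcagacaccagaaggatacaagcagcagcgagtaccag

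The forward match began at position 240 of the window (11 bases before the start), and the reverse match at position 88. TATAAG occurred in 7.43% of the 32851 windows of this length in the RefSeq table. The AP-1 letters TGANTCA, a site of FOS and JUN proteins, and the PU.1 letters GAGGAAG, a site of a myeloid transcription factor, had no match in the *Ccl3* window on either strand. They occurred in 7.81% and 13.6% of all windows. Only these exact letters were sought, so a site spelled otherwise is missed. The shorter GAGGAA does occur in the *Ccl3* window on the reverse strand, printed as ttcctc, and its share of all windows was not counted. Among the other 5 genes, PU.1 letters matched in *C1qc* and TATAAG in *Aif1*. These are matches of letters in a window and not measured binding sites.

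Levels are the deposited log2 values. No detection call was used, and a level was set instead against 1210 probe sets for olfactory and vomeronasal receptors, sensory receptors of the nose that describe dim signal here. Their 95th percentile on an array, called the dim-signal line below, lay at 3.99 to 4.11 on the sorted arrays and at 4.27 to 4.42 on the dissected arrays. Brightness differs between probe sets, so levels are compared between arrays for a gene and never between genes.

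The sorted arrays carried dopaminergic markers of the label's cell type, to unequal degrees above the mdDA domain. The marker *Th*, encoding tyrosine hydroxylase, was at 10.47 and 10.61 in sorted E14.5 neurons, at 10.58 and 10.57 in sorted E13.5 neurons, at 9.28 and 9.12 on the mdDA arrays and at 5.57 and 5.11 on the lateral arrays. *Pitx3*, at whose locus GFP stands, differed less. It averaged 7.84 in sorted E14.5 neurons, 7.80 in sorted E13.5 neurons, 7.39 on the mdDA arrays and 6.72 on the lateral arrays. Of 12 microglial markers (the 8 non-chemokine genes described here plus *Ptprc*, *Spi1*, *Irf8* and *Adgre1*) 6 to 8 lay above the dim-signal line on the sorted arrays and 4 to 6 on the dissected arrays. The line lay lower on the sorted arrays, so these counts do not compare the groups. *C1qa*, for example, counted as above at 4.13 on a sorted E13.5 array and as below at 4.25 on an mdDA array. The summed linear level of the 12 markers was 331 and 296 in sorted E14.5 neurons, 203 and 232 in sorted E13.5 neurons, 278 and 283 on the mdDA arrays and 266 and 256 on the lateral arrays. Such a sum gives most weight to the brightest probe sets. *C1qb* was the brightest of the 12 on replicate 1 of the sorted E14.5 neurons, at 6.72 against 5.25 on replicate 2. The median log2 level of the 12 lay between 4.04 and 4.31 on all 8 arrays. Of 34 other measured microglia and macrophage genes, 13 were above the line on 0 of 8 arrays, among them *Ptprc*, *Spi1*, *Adgre1*, *Itgam*, *Mrc1*, *Cd14* and *P2ry12*. A further 7 (*Cd68*, *Laptm5*, *Trem2*, *P2ry13*, *Sall1*, *Cd83* and *Olfml3*) were above it on all 8 arrays, and 14 to 16 of the 34 were above it on each array. These names were chosen after their values were seen.

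**Figure D1:**
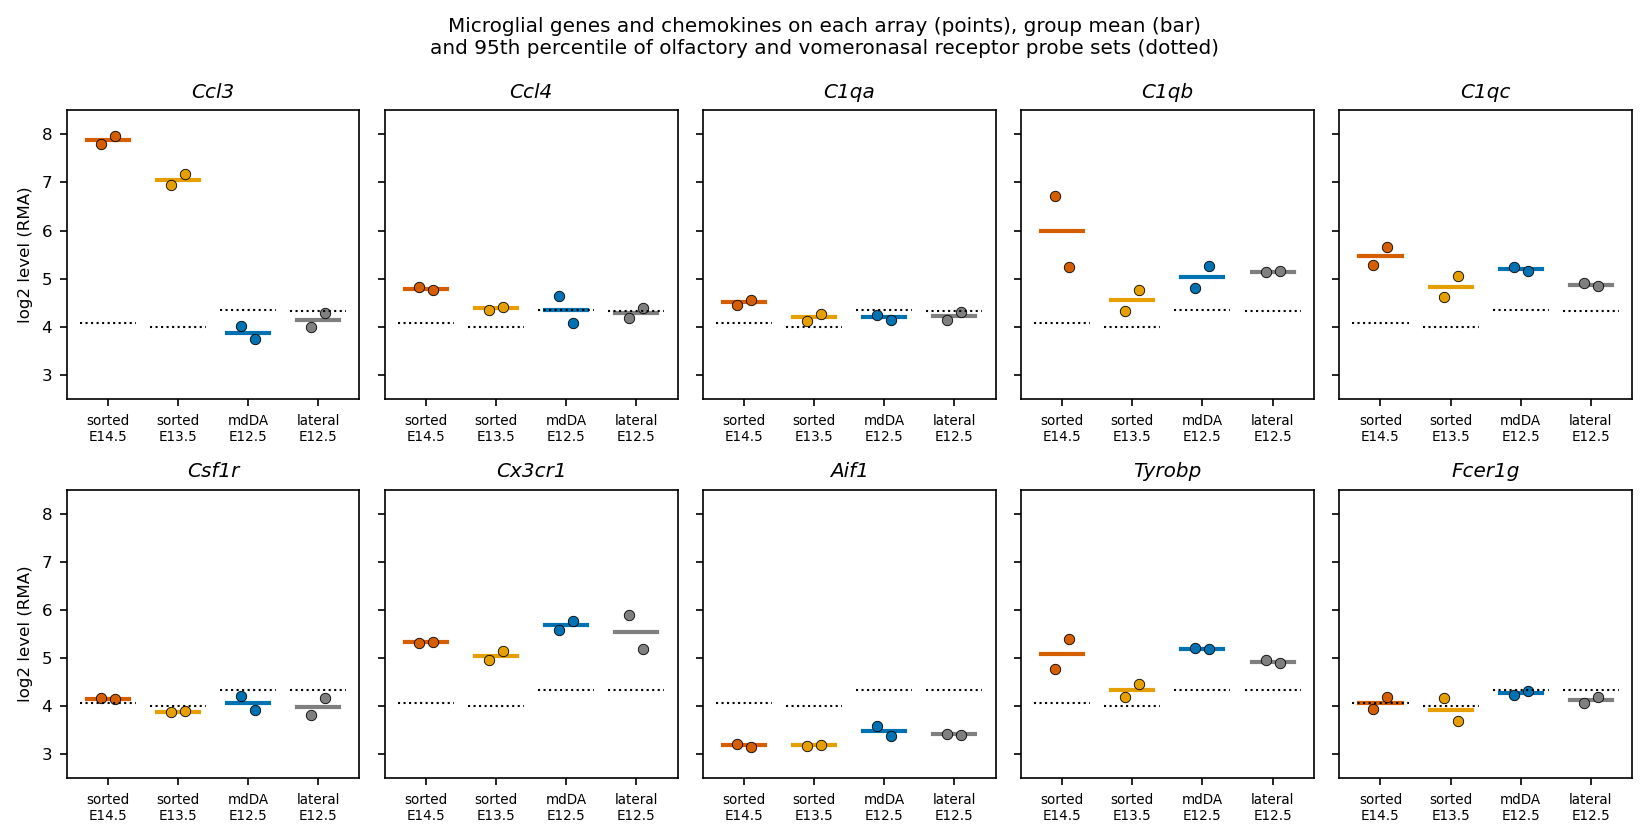
Log2 level of each of the 10 genes (y axis) on the 2 arrays of the 4 groups (x axis), with a bar at the group mean and a dotted line at the group's mean 95th percentile of olfactory and vomeronasal receptor probe sets. *Ccl3* stands at 6.95 to 7.97 on the 4 sorted arrays and at 3.74 to 4.29, below the dotted line, on the 4 dissected arrays, while the other 9 genes stay between 3.16 and 6.72.

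The first comparison asked whether these transcripts were higher or lower in sorted mdDA neurons than in the mdDA domain from which such neurons come. *Ccl3* was the only one of the 10 that passed the test, and it rose strongly. *Ccl3* (probe set 10389231) had log2 levels of 7.80 and 7.97 in sorted E14.5 neurons, 6.95 and 7.17 in sorted E13.5 neurons, 4.02 and 3.74 on the mdDA arrays and 3.99 and 4.29 on the lateral arrays. The 4 sorted arrays did not overlap the 4 dissected ones, and *Ccl3* was above the dim-signal line on all 4 sorted arrays and on none of the dissected arrays. Within an array it ranked at the 82.0 to 90.5 percentile of all probe sets in sorted neurons and at the 32.0 to 44.1 percentile in dissected tissue.

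The mean of both sorted groups exceeded the mdDA domain by 3.60 on the log2 scale (standard error 0.152, 95% confidence interval 3.23 to 3.96, adjusted p = 0.000597 from limma), a ratio of 12.1 between the measured levels. Because the dissected arrays lay in the range of dim signal, the ratio was also taken against the higher of the dim-signal line and the measured level. It then came to at least 8.74-fold over the mdDA domain and at least 8.86-fold over the lateral domain. By age, *Ccl3* was at least 11.6-fold higher in sorted E14.5 neurons and at least 6.57-fold higher in sorted E13.5 neurons than in the mdDA domain. Over 19 other settings of the fit, scaling or arrays used, not all of them distinct, the difference ranged between 3.18 and 4.01 and passed the test each time.

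At the same false discovery rate of 10%, 18.4% of all probe sets passed in this comparison (8.53% higher and 9.84% lower), against 1 of 10 here. The median difference of the 10 genes was -0.05, beside -0.08 over all probe sets. Centring of the arrays changed the balance of calls over all probe sets. The share of calls that were higher was 46.4% as deposited, 75.8% after centring each array on its median and 71.2% after centring on the receptor probe sets. *Ccl3* was high under each of these scalings.

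*Ccl4*, the chemokine most closely related to *Ccl3*, gave no such call. *Ccl4* (probe set 10379721) had log2 levels of 4.82 and 4.76 in sorted E14.5 neurons, 4.35 and 4.42 in sorted E13.5 neurons, 4.63 and 4.07 on the mdDA arrays and 4.19 and 4.40 on the lateral arrays. Sorted E13.5 neurons and both domains overlapped, and only the sorted E14.5 arrays stood above the rest. The difference between sorted neurons and the mdDA domain was 0.24 (95% confidence interval -0.17 to 0.65, adjusted p = 0.418 from limma). The interval of *Ccl4* ended well short of that of *Ccl3*, although the difference between the genes was not itself tested.

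The C1q chains, which assemble into 1 protein, did not pass the test between sorted neurons and the mdDA domain. *C1qa* (probe set 10517517) lay between 4.46 and 4.56 in sorted E14.5 neurons, 4.13 and 4.26 in sorted E13.5 neurons, 4.14 and 4.25 on the mdDA arrays and 4.14 and 4.31 on the lateral arrays. *C1qc* (probe set 10517513) was at 5.29 and 5.66 in sorted E14.5 neurons, 4.62 and 5.05 in sorted E13.5 neurons, 5.25 and 5.15 on the mdDA arrays and 4.91 and 4.84 on the lateral arrays. For both genes the sorted and mdDA arrays overlapped, and the differences were 0.16 for *C1qa* (95% confidence interval -0.11 to 0.42, adjusted p = 0.414 from limma) and -0.04 for *C1qc* (-0.45 to 0.36, adjusted p = 0.891). *C1qa* passed only when the arrays were quantile-normalized again or centred on their medians.

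The value of *C1qb* depended on 1 array. *C1qb* (probe set 10517508) was at 6.72 on replicate 1 and 5.25 on replicate 2 of the sorted E14.5 neurons, 4.33 and 4.77 in sorted E13.5 neurons, 4.80 and 5.26 on the mdDA arrays and 5.13 and 5.16 on the lateral arrays. The gap of 1.47 between the sorted E14.5 arrays was reached by 2.59% of all probe sets, whose median gap was 0.201. The difference between sorted neurons and the mdDA domain was 0.24 (95% confidence interval -0.71 to 1.18, adjusted p = 0.742 from limma), and -0.13 without replicate 1 of the sorted E14.5 neurons.

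The surface receptors did not pass the test. *Cx3cr1* (probe set 10597743), the receptor for the neuronal chemokine fractalkine, was at 5.31 and 5.34 in sorted E14.5 neurons, 4.96 and 5.14 in sorted E13.5 neurons, 5.59 and 5.78 on the mdDA arrays and 5.90 and 5.18 on the lateral arrays. All 4 sorted arrays lay below both mdDA arrays, and the mean difference was -0.50 (adjusted p = 0.178 from limma, standard error 0.206). Without the lateral arrays in the fit the same difference had an adjusted p of 0.0762. *Csf1r* (probe set 10456071), the receptor for the growth factors CSF1 and IL34, was at 4.17 and 4.14 in sorted E14.5 neurons, 3.87 and 3.90 in sorted E13.5 neurons, 4.22 and 3.93 on the mdDA arrays and 3.81 and 4.17 on the lateral arrays. *Csf1r* exceeded the dim-signal line on 2 of 8 arrays, both of sorted E14.5 neurons, and its difference was -0.06 (95% confidence interval -0.40 to 0.29), near the median of all probe sets. The line was higher on the dissected arrays, and *Csf1r* at 4.22 on an mdDA array lay below it.

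The adaptors and the cytoplasmic marker were also lower on average in sorted neurons, and none passed. *Tyrobp* (probe set 10551883), whose product couples TREM2 and related receptors to SYK, was at 4.77 and 5.39 in sorted E14.5 neurons, 4.20 and 4.46 in sorted E13.5 neurons, 5.20 and 5.19 on the mdDA arrays and 4.95 and 4.90 on the lateral arrays. Its difference was -0.49 (standard error 0.185, adjusted p = 0.146 from limma). *Tyrobp* passed with sorted E13.5 neurons alone (-0.86, adjusted p = 0.0652) and without replicate 2 of the sorted E14.5 neurons (-0.64, adjusted p = 0.0377). *Fcer1g* (probe set 10360070), which encodes the common Fc receptor gamma chain, ranged between 3.70 and 4.19 in sorted neurons and between 4.06 and 4.31 in dissected tissue, with a difference of -0.27 between sorted neurons and the mdDA domain (adjusted p = 0.322). *Aif1* (probe set 10450484), which encodes the microglial marker protein IBA1, ranged between 3.16 and 3.22 in sorted neurons and between 3.37 and 3.59 in dissected tissue and was below the dim-signal line on all 8 arrays, with a difference of -0.29 (adjusted p = 0.138). The arrays did not overlap between sorted neurons and the mdDA domain for 4 of the 10 genes, 3 lower (*Cx3cr1*, *Aif1* and *Fcer1g*) and 1 higher (*Ccl3*), beside 37.3% of all probe sets in either direction. The receptor probe sets themselves had a median difference of -0.16, so small negative values of dim genes were common in this comparison.

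**Figure D2:**
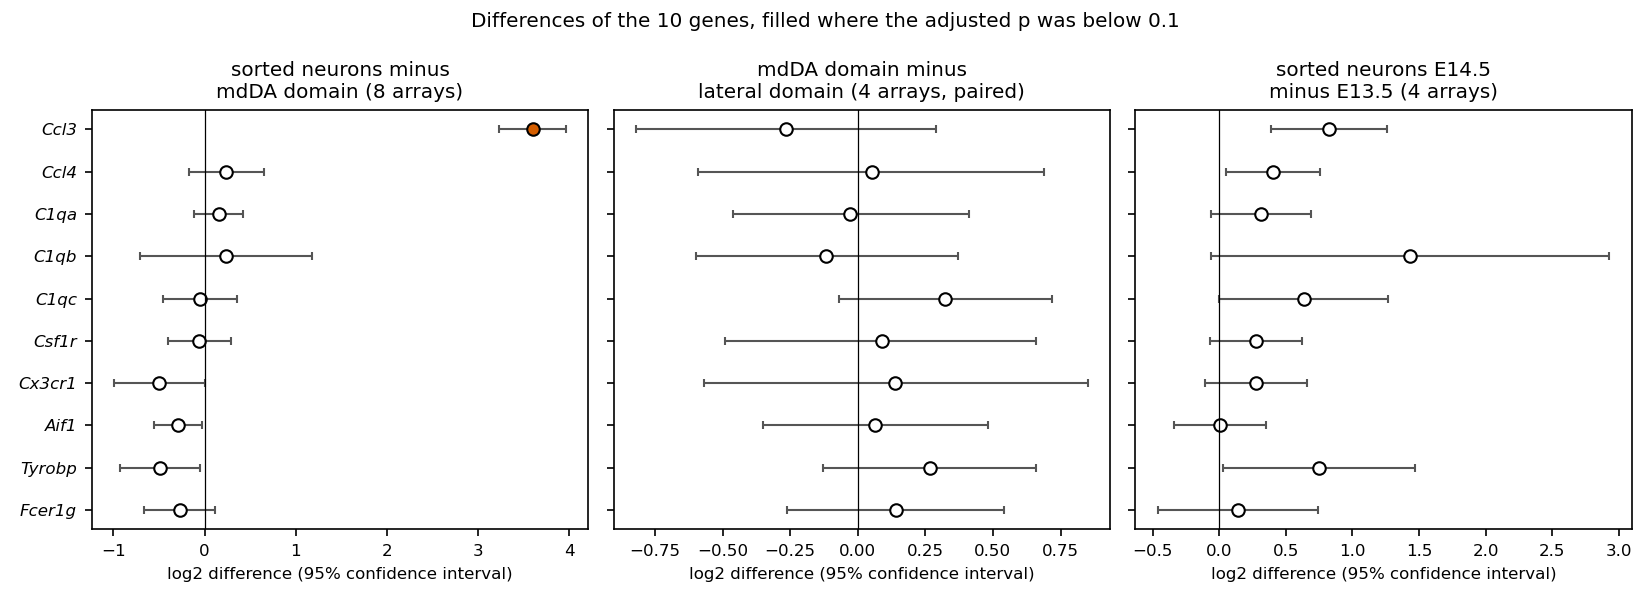
Log2 difference (x axis, with 95% confidence interval from limma) of each gene (y axis) for sorted neurons minus mdDA domain (left), mdDA domain minus lateral domain (middle) and sorted E14.5 minus sorted E13.5 neurons (right), filled where the adjusted p was below 0.1. Only *Ccl3* is filled, in the left panel at 3.60, and all 10 points of the right panel lie above 0, with *C1qb* the widest interval. The 3 panels have different x scales.

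The second comparison, mdDA domain against lateral domain, asked whether the 10 transcripts differed between 2 regions of the same embryos. None of the 10 passed the paired limma test, in which 2.62% of all probe sets passed (1.52% higher and 1.10% lower), and none had an unadjusted p below 0.05, beside 13.7% of all probe sets. The differences lay between -0.26 (*Ccl3*) and 0.32 (*C1qc*, mean 5.20 ± 0.076 on the mdDA arrays and 4.88 ± 0.052 on the lateral arrays, SD, n = 2 arrays each). The 95% confidence intervals reached at most 0.85 (*Cx3cr1*) upward and -0.82 (*Ccl3*) downward. Arrays of the domains did not overlap for 3 genes (*C1qc*, *Tyrobp* and *Fcer1g*), all higher in the mdDA domain, beside 43.8% of all probe sets in either direction. The median difference of the 10 genes was 0.08, and -0.01 over all probe sets.

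The third comparison, sorted E14.5 against sorted E13.5 neurons, asked whether the levels changed with age. All 10 differences were above 0, and for 8 of the 10 genes both sorted E14.5 arrays lay above both sorted E13.5 arrays, beside 18.0% of all probe sets in that direction. No probe set of the array passed the limma test here (0.00% called), so none of the 10 did. At an unadjusted p below 0.05 stood 4 of the 10 (*Ccl3*, *Ccl4*, *C1qc* and *Tyrobp*, all higher) and 6.06% of all probe sets. The median difference was 0.36, or 0.32 without *Ccl3*, beside 0.00 over all probe sets. Markers of some other cells, but not of most, stood higher at E14.5 as well. Radial glia markers had the same median difference of 0.36, with 7 of 8 above 0 and 5 of 8 higher without overlap (*Fabp7* at 0.97), and pericyte markers had a median of 0.20, with 6 of 6 above 0 and 4 of 6 higher without overlap (*Rgs5* at 0.92). The radial glia gene *Nes* went the other way (-0.50). Medians of the other lists lay nearer that of all probe sets. They were 0.10 for endothelial, 0.07 for erythroid, 0.05 for granulocyte and mast cell, 0.04 for lymphocyte and natural killer cell and -0.05 for dopaminergic markers. The part of other cells in the age differences was not tested. The 10 genes are not independent of each other, and the 2 arrays of an age are technical replicates. Age therefore cannot be told apart from other differences between the sorted samples.

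*Ccl3* averaged 7.89 ± 0.121 in sorted E14.5 neurons and 7.06 ± 0.156 in sorted E13.5 neurons (SD, n = 2 arrays each). The sorted E14.5 level was 0.82 higher (95% confidence interval 0.39 to 1.26, standard error 0.158, adjusted p = 0.744 from limma), or 1.77-fold. The gaps between arrays of an age were 0.17 at E14.5 and 0.22 at E13.5, smaller than the step between the ages. *Ccl4* differed by 0.41 (95% confidence interval 0.05 to 0.76), with gaps between arrays of 0.07 at both ages. Both chemokines stood higher on the E14.5 arrays, with nonoverlapping values but adjusted p-values above the threshold.

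*C1qb* had the widest step with age and the least certain one. Its difference was 1.43 (standard error 0.546, 95% confidence interval -0.06 to 2.93), and it was 0.70 without replicate 1 and 2.16 without replicate 2 of the sorted E14.5 neurons. *C1qc* differed by 0.64 (0.00 to 1.27) and *C1qa* by 0.32 (-0.06 to 0.69), so all 3 chains were higher at E14.5 on every array. *Tyrobp* differed by 0.75 (0.03 to 1.47), with replicate 2 of the sorted E14.5 neurons 0.61 above replicate 1. On that replicate *C1qc* was the higher of its pair as well, while *C1qb* was the lower, so no E14.5 array was the higher one for these 3 genes together.

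The remaining 4 genes had small steps. *Csf1r* differed by 0.27 (95% confidence interval -0.07 to 0.62) and *Cx3cr1* by 0.28 (-0.11 to 0.66), each with nonoverlapping arrays. *Fcer1g* differed by 0.14 (-0.46 to 0.74) with overlapping arrays. *Aif1*, at 3.22 and 3.16 in sorted E14.5 neurons and 3.18 and 3.19 in sorted E13.5 neurons, differed by 0.01 (-0.34 to 0.35). Over 13 other settings, no test of any of the 10 genes passed in this comparison, and 124 of 127 values were above 0. Several of these settings change only the error, the adjustment or the threshold, so their differences repeat those of the main fit.

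**Figure D3:**
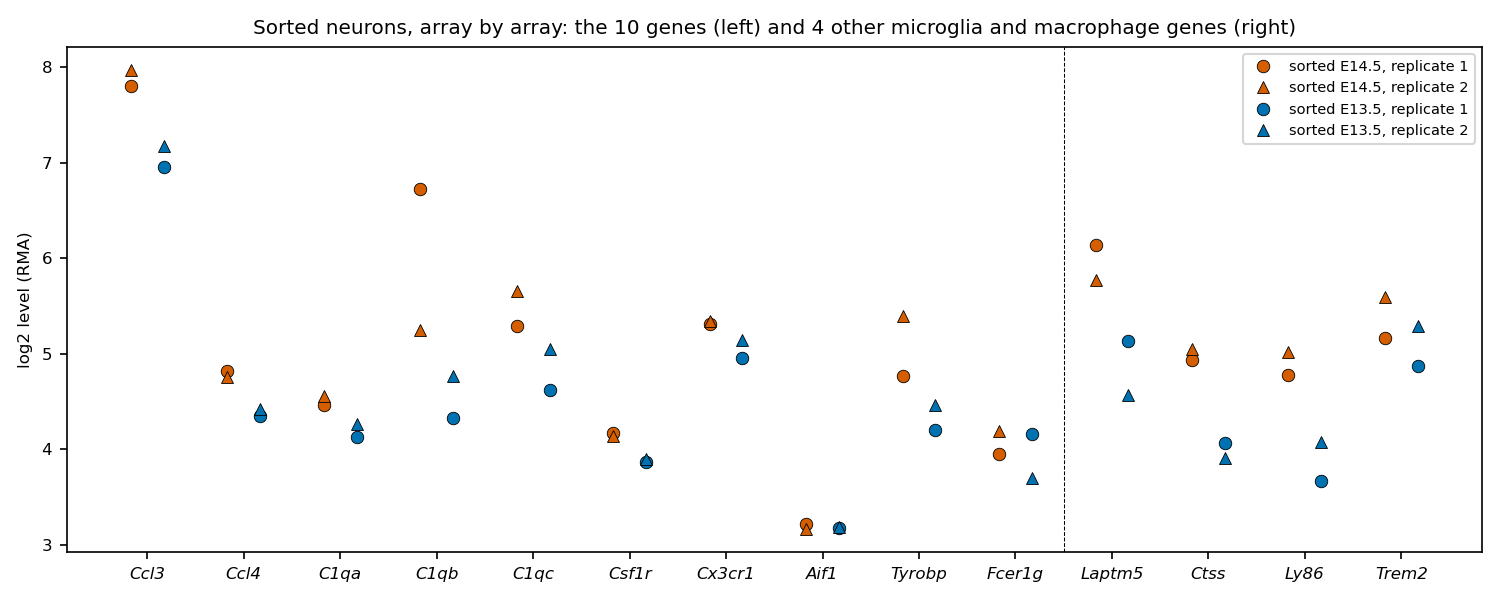
Log2 level (y axis) on each array of sorted neurons, E14.5 left of E13.5 for each gene (x axis), with circles for replicate 1 and triangles for replicate 2. Both E14.5 symbols stand above both E13.5 symbols for 8 of the 10 genes to the left of the dashed line, the exceptions being *Aif1* and *Fcer1g*, and the 2 E14.5 symbols of *C1qb* lie 1.47 apart.

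Other genes of microglia and macrophages were read from a list of 35, of which 34 were measured. Between sorted neurons and the mdDA domain none of the 34 was higher and 5 were lower, with a median difference of -0.06, beside 8.53% of all probe sets higher, 9.84% lower and a median of -0.08. *Hpgds*, which encodes a prostaglandin D synthase, was at 3.75 and 3.79 in sorted E14.5 neurons, 3.41 and 3.58 in sorted E13.5 neurons and 5.17 and 5.62 in the mdDA domain (difference -1.76, adjusted p = 0.00308 from limma). *Hpgds* was below the dim-signal line on all 4 sorted arrays, and against that line it was at least 2.55-fold lower in sorted neurons. *P2ry13* (-0.50), *F13a1* (-0.46) and *Siglech* (-0.43) were also called lower, the last 2 above the dim-signal line on only 1 sorted array each. *Ctss* was called lower on average (-0.39). Its sorted E13.5 arrays (4.06 and 3.91) lay below the mdDA arrays (5.01 and 4.75), but its sorted E14.5 arrays (4.93 and 5.05) overlapped them. *Hpgds* was the 1 gene of this list called between the domains, with mdDA levels above the lateral ones (3.76 and 3.86) by 1.59 (adjusted p = 0.0609), or at least 2.09-fold against the dim-signal line.

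With age, 24 of the 34 were above 0 and 14 had higher, nonoverlapping E14.5 arrays, 5 lower, beside 18.0% of all probe sets in the higher direction. *Laptm5*, *Ly86* and *Ctss* are given because their steps were the widest, and they were chosen after their values were seen. The lysosomal gene *Laptm5* was at 6.14 and 5.77 in sorted E14.5 neurons and at 5.13 and 4.57 in sorted E13.5 neurons. The protease gene *Ctss* was at 4.93 and 5.05 in sorted E14.5 neurons and at 4.06 and 3.91 in sorted E13.5 neurons. *Ly86* was at 4.78 and 5.02 in sorted E14.5 neurons and at 3.67 and 4.08 in sorted E13.5 neurons. None of the 34 passed.

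The partners of the 10 genes were mostly dim. Of 5 measured ligands and receptors (*Csf1*, *Il34*, *Cx3cl1*, *Ccr1* and *Ccr3*) none passed in any comparison, and 1 lay above the dim-signal line on each array. *Cx3cl1*, encoding the fractalkine that binds CX3CR1, was at 5.23 and 5.13 in sorted E14.5 neurons, 5.36 and 5.50 in sorted E13.5 neurons, 5.44 and 4.90 on the mdDA arrays and 5.31 and 5.26 on the lateral arrays. *Ccr1*, a receptor of CCL3, lay between 2.78 and 3.13 over the 8 arrays. Of 8 measured genes that work with the adaptors, none passed. Among them were *Trem2*, at 4.87 to 5.59 in sorted neurons and 4.98 to 5.56 in dissected tissue, and *Hcst*, at 4.79 to 4.97 in sorted neurons and 4.90 to 5.43 in dissected tissue.

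Other genes of the complement cascade were mostly without a call. Of 10 measured, 2 were lower in sorted neurons than in the mdDA domain, the protease gene *C1ra* (-0.46) and the C1 inhibitor gene *Serping1* (-0.49), and none was higher. Of all probe sets 9.84% were called lower and 8.53% higher there. *Cr1l*, which encodes a complement regulator, was lower on the mdDA arrays (4.00 and 4.07) than on the lateral arrays (4.93 and 4.99), with an adjusted p of 0.0989 from limma.

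No other chemokine was called higher in sorted neurons. Of 22 measured chemokines besides *Ccl3* and *Ccl4*, *Ccl28* (-0.53) and *Cxcl13* (-0.47) were lower than in the mdDA domain, although both were below the dim-signal line on all 8 arrays, and the median was -0.22. Of all probe sets 9.84% were called lower in this comparison, a share near that of the chemokines, and their median was -0.08. The differences reached at most 0.36. Of 13 measured genes for inflammatory cytokines and NF-kB feedback none passed in any comparison. The NF-kB inhibitor gene *Nfkbia* was at 6.12 to 6.42 in sorted neurons and 5.76 and 6.03 in the mdDA domain. The cytokine gene *Il1a*, chosen after its values were seen, was at 4.12 and 3.48 in sorted E14.5 neurons and at 2.99 and 2.61 in sorted E13.5 neurons, and at 2.83 to 3.22 in dissected tissue.

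Immediate early genes, which cells transcribe within minutes of a stimulus, moved in the direction of *Ccl3*. Of 12 measured, 8 were higher in sorted neurons than in the mdDA domain and none was lower (median difference 1.64), beside 8.53% of all probe sets higher and 9.84% lower. *Fos* was at 9.29 and 9.26 in sorted E14.5 neurons, 7.95 and 7.86 in sorted E13.5 neurons and 4.19 and 4.29 in the mdDA domain (difference 4.35, adjusted p = 0.000212 from limma). *Fosb* (4.09), *Egr1* (3.96) and *Nr4a1* (3.19) followed. Between the ages, 7 of the 12 had higher, nonoverlapping E14.5 arrays and 1 lower, with *Fos* at a difference of 1.37 and none called. Of all probe sets 18.0% had higher, nonoverlapping E14.5 arrays. The part of these genes in the *Ccl3* result was not tested.

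Markers of other cells were lower in sorted neurons or dim. The counts below stand beside 9.84% of all probe sets called lower than in the mdDA domain and 8.53% called higher. Endothelial genes fell in 7 of 10 cases, among them *Emcn* (-1.43, at least 1.61-fold lower against the dim-signal line) and *Cdh5* (-1.05). Pericyte genes fell in 4 of 6 cases, with *Rgs5* at -1.21, and erythroid genes in 6 of 7, with the embryonic globin genes *Hba-x* at -5.72 and *Hbb-y*, below the dim-signal line on the sorted arrays, at least 100.0-fold lower. Radial glia genes fell in 6 of 8 cases. None of the 9 granulocyte and mast cell genes was above the dim-signal line on any array, and of the 8 measured lymphocyte and natural killer cell genes 1 or 2 were above it on each array, with no call in either list. Dopaminergic genes rose in 4 of 6 cases, namely the dopamine transporter gene *Slc6a3* (2.37), *Th* (1.36), the vesicular transporter gene *Slc18a2* (1.26) and *Ddc* (1.16), which encodes a dopamine-synthesizing enzyme. *Pitx3* (0.44, adjusted p = 0.143 from limma) and *Nr4a2* (0.39, adjusted p = 0.135) did not pass. These values stand beside the *Ccl3* result, and their part in it was not tested.

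**Figure D4:**
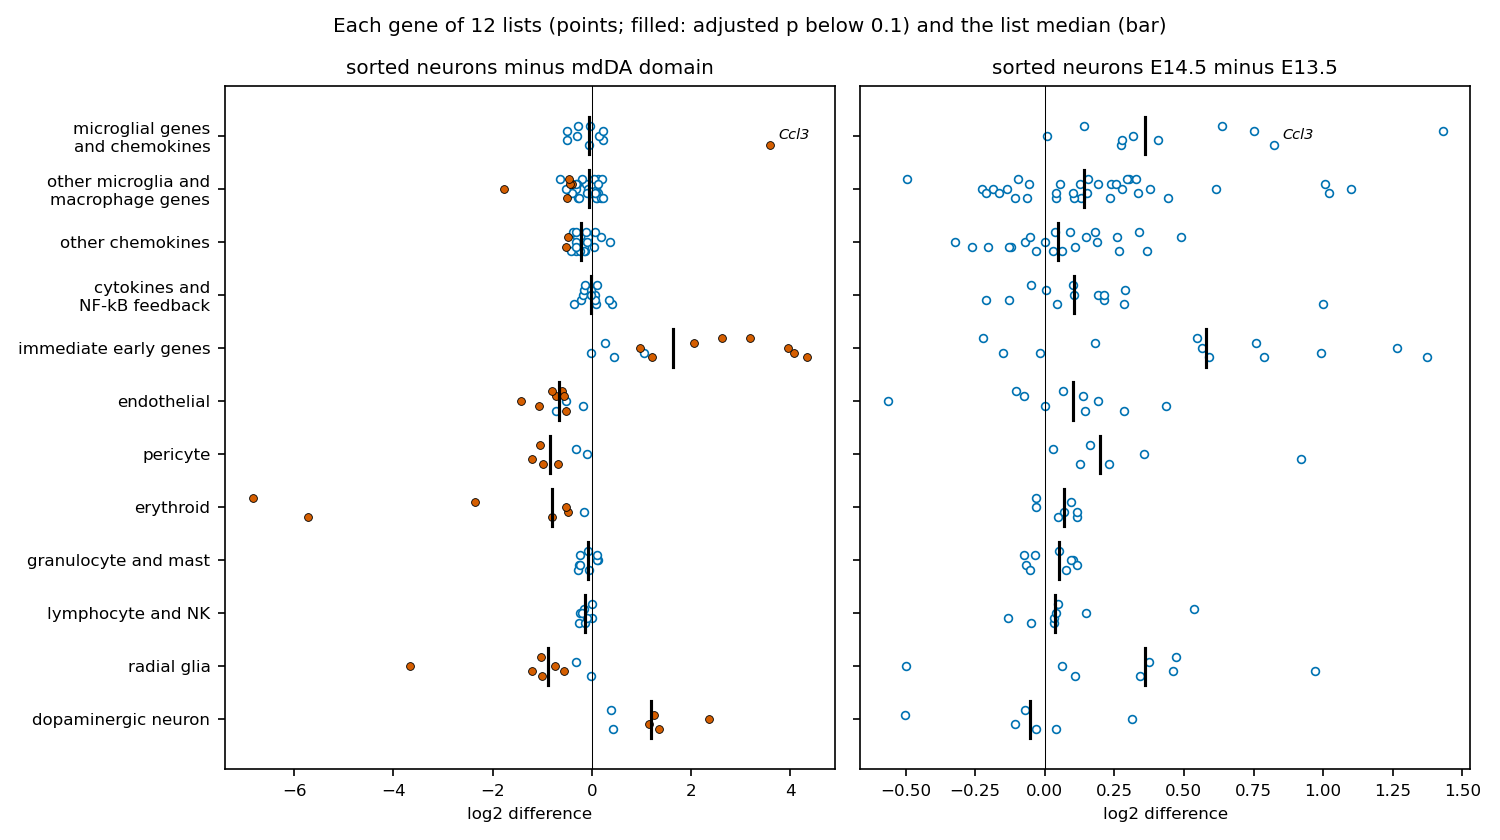
Log2 difference (x axis) of each gene of 12 lists (y axis) for sorted neurons minus mdDA domain (left) and sorted E14.5 minus sorted E13.5 neurons (right), filled where the adjusted p was below 0.1, with a bar at the list median. In the left panel *Ccl3* stands at 3.60, apart from the other 9 genes of its row (-0.50 to 0.24) and within the range of the immediate early genes, whose highest value is 4.35. The right panel holds no filled point.

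The genes whose pattern over the 8 arrays was most like the mean of *Ccl3* and *Ccl4* were sought among 2096 genes that varied enough (SD of at least 0.5). They were *Aldh1a1* (Pearson r = 0.997), *Ppp5c* (0.991), *Fosb*, *Klf6* and *Rrp1* (0.988 each). The values of *Ccl3* spanned 4.24 over the 8 arrays and those of *Ccl4* 0.75, so the mean followed mostly *Ccl3*. *Aldh1a1*, which encodes a retinaldehyde dehydrogenase of a subset of dopaminergic neurons, averaged 9.35 in sorted E14.5 neurons, 7.88 in sorted E13.5 neurons, 4.04 on the mdDA arrays and 4.23 on the lateral arrays. The arrays form pairs of technical replicates and fall apart into sorted and dissected ones, so these coefficients describe a shared step and carry no test.

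For the mean of the C1q chains the most similar were *Mir99a* (r = 0.919), *Frg2f1* (0.908), *Ftsj1* (0.905), *Snord38a* (0.877) and *Bloc1s3* (0.872). Their differences between sorted E14.5 and sorted E13.5 neurons ran between 1.12 and 2.70, and none passed the test. The values of *C1qb* spanned 2.38 over the 8 arrays, those of *C1qc* 1.04 and those of *C1qa* 0.43. The mean of the chains therefore followed mostly *C1qb*, whose highest value (6.72) came from replicate 1 of the sorted E14.5 neurons alone. Between members, *Ccl3* and *Ccl4* had an r of 0.65 over the 8 arrays, *C1qa* and *C1qc* 0.78, *C1qa* and *C1qb* 0.57 and *Ccl3* and *Aif1* -0.88, again as a description only.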

How the data were processed

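The deposited log2 value of each probe set was made by the authors with robust multi-array average (RMA) with sketch-quantile normalization in Affymetrix Expression Console 1.2, per the labels and the paper's methods. The values, between 1.85 and 13.4, were used as deposited for 8 arrays. The number of arrays limits the precision. RMA scales all arrays to a common distribution, so a level is relative to the other probe sets of its array. The build behind the arrays is not given in the sources used here.

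Of 35556 probe sets, 21789 had 1 gene symbol, 1621 several and 12146 none in the annotation used, and 21698 single symbols matched RefSeq. Groups came from the sample labels. Differences were fitted with limma 3.58.1 in R 4.3.3 (lmFit and eBayes, Benjamini-Hochberg adjustment over all probe sets, false discovery rate below 10%). The domains were compared (mdDA minus lateral) with the replicate number as a block, since the methods name a paired limma test, the mean of both sorted groups with the mdDA domain over all 8 arrays without a block, and E14.5 with E13.5 over the 4 sorted arrays without a block. What pairs the arrays is not given. Confidence intervals are those of single differences, not adjusted. The fits were tested on simulated data, in which the paired fit made more false calls than its nominal rate.

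The 10 genes and 14 other gene lists were chosen with earlier results of these data known. Named besides the 10 were, of each list, up to 4 genes called in a comparison (largest difference first), or the 2 with the highest mean value where fewer than 2 were called (a rule for naming, not a comparison of levels), and the 5 genes most similar to each of 2 mean profiles. Cell type markers, and genes said to be chosen after their values were seen, were named outside this rule, as were *Ctss* and *Fabp7*. Some listed genes are not reported here. Tables and plots used pandas 2.3.3 and numpy 2.4.6 in Python 3.11.15, with matplotlib 3.10.9.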

Additional observations from a re-analysis of the deposited data

How the results depend on the processing

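*Ccl3* passed the test between sorted neurons and the mdDA domain in 19 of 19 other settings, and no member was called between the domains or between the ages in any setting. The settings are not independent. Some change only the error, the adjustment or the threshold. Between sorted neurons and the mdDA domain, leaving out either lateral array gave the same fit as leaving out both. Members called between sorted neurons and the mdDA domain were 2 in place of 1 with only the 6 mdDA and sorted arrays in the fit (*Cx3cr1* added), with sorted E13.5 neurons only (*Tyrobp*), after repeated quantile normalization and after centring on array medians (*C1qa*, 0.36 and 0.35), and with only probe sets of 1 gene symbol (*Tyrobp*), and 1 to 2 when 1 array was left out.

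Some small differences changed sign. Between sorted neurons and the mdDA domain, *C1qa* (-0.00) and *C1qb* (-0.48) did so with sorted E13.5 neurons only, and *C1qc* and *Csf1r* with sorted E14.5 neurons only (0.27 and 0.08), repeated quantile normalization (0.07 and 0.15), centring on array medians (0.15 and 0.14) and centring on the receptor probe sets (0.12 and 0.10). With 1 array left out, *C1qb* ranged between -0.13 and 0.60, *C1qc* between -0.15 and 0.06, *Csf1r* between -0.20 and 0.09 and *Ccl4* between -0.04 and 0.52. Between the domains, with 1 array left out, *Ccl4* ranged between -0.22 and 0.33, *C1qb* between -0.35 and 0.11, *Csf1r* between -0.09 and 0.27, *Aif1* between -0.04 and 0.17, *C1qa* between -0.11 and 0.05 and *Cx3cr1* between -0.22 and 0.50. Between the ages, *Aif1* was -0.02 after centring on the receptor probe sets and ranged between -0.02 and 0.04, and *Fcer1g* between -0.09 and 0.37, with 1 array left out. The cause was not tested.

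Of all probe sets, 931 passed between the domains. The count was 1434 with no replicate block, 1646 with the trend and robust options, 227 at a false discovery rate of 5%, 2502 with only probe sets of 1 gene symbol and 15 to 170 without 1 array, where a domain is left with a single array and is assumed to vary like the other. Between sorted neurons and the mdDA domain 6532 passed, 3935 at a false discovery rate of 5% and 2037 to 6505 without 1 array. Between the ages 0 passed, and 20 with all 8 arrays in the fit.

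Deviations of same-numbered arrays correlated at -0.015 between the domains and 0.013 between the ages, so the numbers did not pair the arrays visibly. The replicate block gave 5625 calls between sorted neurons and the mdDA domain and 0 between the ages, and changed no call of a member.

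Repeated quantile normalization, centring on array medians and centring on the receptor probe sets moved the median difference of all probe sets between sorted neurons and the mdDA domain by 0.10, 0.20 and 0.16. The last was chosen after seeing the data. Averaging probe sets of a gene could not be run because each member has 1. With 2 technical arrays a group, small steps of dim genes were at the limit of these arrays.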
